A study of Mus musculus with 6 samples.

Results

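The vacuolar proton ATPase (V-ATPase) is a rotary pump that acidifies lysosomes, endosomes and the Golgi, and it is built from a membrane sector, V0, and a cytosolic sector, V1. V1 hydrolyses ATP and turns a rotor, and V0 carries the protons through the membrane between its large a subunit and a ring of small proteolipid subunits. The d subunit joins that ring to the stalk of V1, the e subunits are very small membrane proteins, and the accessory protein Ac45 is needed for assembly and sorting of the pump. In heart muscle, as in other tissues, the pump supports lysosomal degradation and the recycling of endosomes.

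Here the RNA of 8 V0 sector genes was followed in mouse hearts. They are *Atp6v0a1* and *Atp6v0a2* (subunits a1 and a2), *Atp6v0c* and *Atp6v0b* (proteolipids c and c''), *Atp6v0d1* (d1), *Atp6v0e* and *Atp6v0e2* (e1 and e2) and *Atp6ap1* (Ac45). They make up 8 of the 16018 genes in the deposited table, and all 8 passed the filter on low values, which kept genes averaging 10 or more normalized counts. The members were chosen from earlier results of this same KO against WT contrast in these same libraries. Their differences between genotypes are therefore given as a description, with no test.

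The libraries come from whole hearts of 3 female NBCe1-B/C KO mice and 3 female wild-type (WT) mice, aged 4 to 5 weeks, on a C57BL/6J background. NBCe1 is the sodium bicarbonate cotransporter encoded by *Slc4a4*. The KO mice (called KO from here on) lack its B and C variants in the whole animal and not in the heart alone, while the WT mice come from the same crosses of heterozygous parents. Messages from other cell types of the heart are included in each library. A deposited value is a normalized count, that is, the reads on a gene divided by a size factor for its library, and it is not scaled to gene length.

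Reads on genes numbered from 41364857 to 49100802 per library, and each KO library was deeper than each WT library. All 7 cardiomyocyte markers were listed, with summed values from 2545600 to 2854100 in KO and from 2213200 to 2322500 in WT. Their log2 fold changes were above 0 for 4 markers and below 0 for 3. Without overlap between the groups, 2 markers were higher in KO and 2 lower, against 15.6% and 14.6% of all genes. *Slc4a4* went against 1 label: its normalized counts were 264, 945 and 269 in KO (replicates 1 to 3), against 675, 822 and 789 in WT. The second of these, labelled KO replicate 2, was thus above every WT library. Values without that library are given for each V0 member and for some of the other results. The counts are per gene and do not separate the variants of *Slc4a4*. Over the 16016 genes tested with limma on log2(normalized count + 1), 0 (0.0%) passed an adjusted p of 0.05 with Benjamini-Hochberg adjustment, and 3764 had an unadjusted p under 0.05. Of these, 2083 were higher and 1681 lower in KO, a split that became 1259 and 2539 after rescaling the libraries to the same total. With all libraries the lowest limma adjusted p of any gene was 0.0815, and several genes shared that value. Without KO replicate 2, 3 genes passed, and all 3 (*Nppb*, *Slc4a4* and *Doc2g*, chosen after their values were seen) were lower in KO. The paper reports many significantly different genes between WT and KO hearts in its RNAseq. It does not describe the RNAseq test, so its count and the limma count cannot be compared directly.

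The lysosomal genes of mammals often carry CACGTG near their start, the core of the motif bound by the MiT/TFE transcription factors, and its longer palindromic form is TCACGTGA. Promoter windows of 300 bases, from 250 before to 50 after a gene's start, were available for 7 of the 8 members (RefSeq, GRCm38.p6); *Atp6v0a2* had none. CACGTG was found in 3 of these 7 genes (42.9%), against 8.09% of the 27025 genes with a window, and TCACGTGA, which contains it, in 2 of 7 (28.6%) against 1.12%. Both motifs read the same on both strands. The 3 stretches are shown because they hold every match among the members, with the motif in capitals.
Atp6v0b, chr4:117887326-117887381, minus strand: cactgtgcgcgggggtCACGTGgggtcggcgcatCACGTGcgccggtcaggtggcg
Atp6v0d1, chr8:105566045-105566084, minus strand: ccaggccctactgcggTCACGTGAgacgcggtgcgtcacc
Atp6v0e, chr17:26676382-26676415, plus strand: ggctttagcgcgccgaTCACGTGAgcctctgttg

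*Atp6v0b* held the 6 letters at 2 places, and *Atp6v0d1* and *Atp6v0e* held the 8 letters at or next to the start that RefSeq gives; for *Atp6v0e* that start lies inside the longer span that GENCODE gives for the gene. No match was found in the windows of *Atp6v0a1*, *Atp6v0c*, *Atp6v0e2* and *Atp6ap1*. A match is a description of the letters and not of binding. Among genes fixed as related lists, 1 of 9 V1 sector genes and 8 of 18 lysosomal genes with a window held CACGTG.

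Of the 8 members, the 2 whose KO libraries all lay below all WT libraries were *Atp6v0b* and *Atp6v0e*, and 0 members had all KO libraries above all WT libraries. Over all genes tested, 14.6% were lower without overlap and 15.6% were higher without overlap. With the library labelled KO replicate 2 left out, the same 2 members were lower without overlap and *Atp6ap1* was higher without overlap, against 19.4% and 20.7% of all genes. The summed normalized count of the 8 members ran from 22695 to 24155 in KO and from 22570 to 24028 in WT, so the groups overlapped in total. The median log2 fold change of the members was 0.08, beside -0.00 over all genes (-0.0043).

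**Figure D1:**
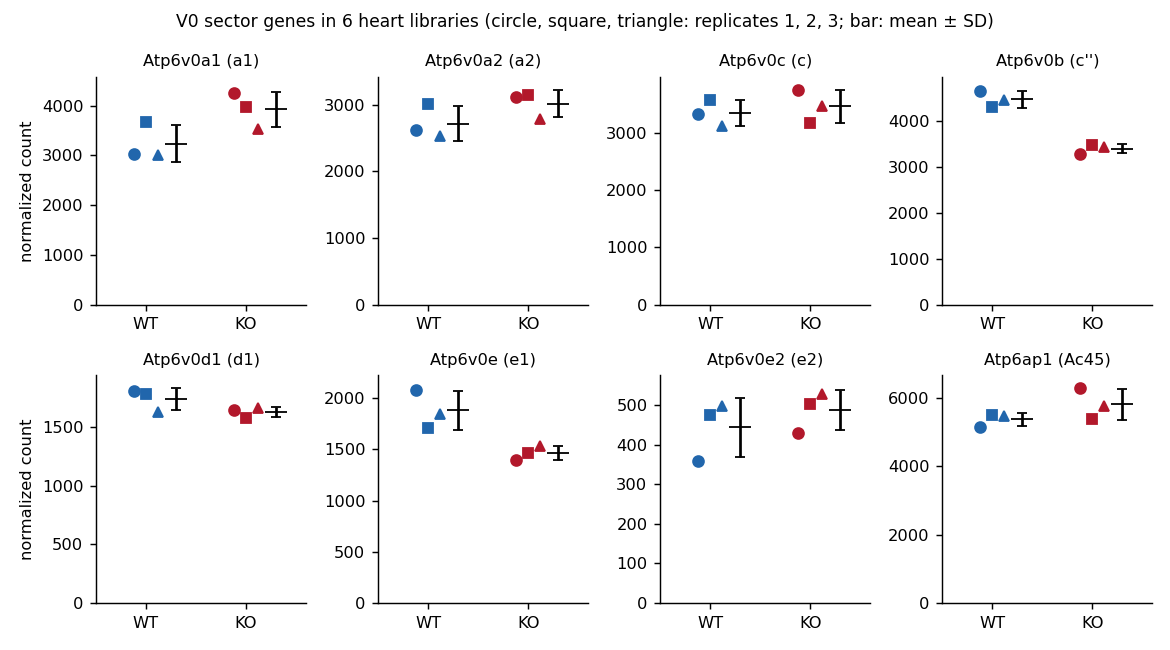
Normalized counts (vertical axis, from 0) of the 8 V0 sector genes in each of the 3 WT (blue) and 3 KO (red) hearts. Circle, square and triangle are replicates 1, 2 and 3, and it is not known whether these numbers pair the mice. The bar beside each group is the mean ± SD. The KO points lie wholly below the WT points for Atp6v0b and Atp6v0e, and the groups overlap for the other 6 genes.

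The a subunits are the large, isoform-specific part of V0, and they hold the proton channels and direct the pump to its membrane. *Atp6v0a1* (ENSMUSG00000019302; GRCm38 chr11:101009452-101063719, plus strand) was listed at 4249, 3978 and 3533 normalized counts in the KO libraries and at 3021, 3667 and 3009.9 in the WT libraries, each in replicate order 1 to 3, as throughout. The lowest KO library lay below the highest WT library, so the groups overlapped. Means were 3919.9 ± 361 in KO and 3233 ± 376 in WT (SD, n = 3 each), a log2 fold change of 0.28 (SE 0.099). Without KO replicate 2 the log2 fold change was 0.27. *Atp6v0a2* (ENSMUSG00000038023; chr5:124628576-124724455, plus strand) was at 3111, 3154 and 2794 in KO and at 2616, 3015 and 2528 in WT. Its groups overlapped as well, with KO replicate 3 and WT replicate 2 out of order, as for *Atp6v0a1*. The log2 fold change of *Atp6v0a2* was 0.15 (SE 0.085), and 0.12 without KO replicate 2. Both genes had their highest WT value in replicate 2 and their lowest KO value in replicate 3, and over the 6 libraries their log2 values had a Pearson r of 0.96, as a description that includes the genotype difference. *Atp6v0a2* shares 663 exon bases with a gene on the opposite strand, 4930404A12Rik, which is not in the table.

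The proteolipids form the ring that turns past the a subunit, and each carries a proton-binding carboxyl group. *Atp6v0c* (ENSMUSG00000024121; chr17:24163866-24169702, minus strand), the c subunit, is present in several copies per ring. It was listed at 3756, 3172 and 3476 normalized counts in KO and at 3345, 3578 and 3134 in WT. The libraries were interleaved, and the log2 fold change was 0.05 (SE 0.082), or -0.03 after rescaling all libraries to the same total. Without KO replicate 2 the log2 fold change was 0.11. *Atp6v0b* (ENSMUSG00000033379; chr4:117884326-117887333, minus strand), the c'' subunit, is a single longer proteolipid of the same ring. It was at 3280.05, 3459.96 and 3426 in KO and at 4642, 4289 and 4451 in WT, and every KO library lay below every WT library. Its mean was 3389 ± 95.6 in KO and 4461 ± 177 in WT (SD, n = 3 each), 0.76 times the WT level, and its log2 fold change of -0.40 (SE 0.060) was the lowest among the 8 members as deposited. Without KO replicate 2 it was -0.41, and after correction for length and GC content it was -0.21 with the longest transcript and -0.17 with the principal one, above *Atp6v0e* at -0.31 and -0.33. The median of the pair, -0.17, describes neither proteolipid. *Atp6v0b* shares 243 exon bases with Gm12841 on the opposite strand, which is not in the table, and *Atp6v0c* has a pseudogene copy in the table, so reads that fit both copies are uncertain.

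Long a subunits were compared with short proteolipids as the mean log2 value of *Atp6v0a1* and *Atp6v0a2* minus that of *Atp6v0c* and *Atp6v0b* in each library. This difference was 0.05, 0.10 and -0.14 in the KO libraries and -0.49, -0.24 and -0.44 in the WT libraries. All KO libraries lay above all WT libraries, and the group means differed by 0.39 (within-group SD 0.12 in KO and 0.13 in WT). Leaving out KO replicate 2, the difference was 0.34, and after correction for transcript length and GC content it was 0.19 with the longest transcript and 0.07 with the principal one. Both sides entered this difference, with a median log2 fold change of 0.22 for the a subunits and -0.17 for the proteolipids. The same comparison was also split by gene. Against *Atp6v0b*, the KO minus WT difference was 0.68 for *Atp6v0a1*, 0.55 for *Atp6v0a2* and 0.44 for *Atp6v0c*, each without overlap between the groups. These comparisons share *Atp6v0b* and are not separate evidence. Against *Atp6v0c*, it was 0.23 for *Atp6v0a1* and 0.10 for *Atp6v0a2* on the log2 scale, and in both the groups overlapped.

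The d and e subunits gave 1 member near its WT level, 1 below it and 1 with wide spread. *Atp6v0d1* (ENSMUSG00000013160; chr8:105524465-105566047, minus strand), which joins the ring to the V1 stalk, was at 1646, 1583 and 1666 normalized counts in KO and at 1810.2, 1785 and 1633 in WT. The groups overlapped through WT replicate 3, and the log2 fold change was -0.09 (SE 0.068), or -0.07 without KO replicate 2. *Atp6v0e* (ENSMUSG00000015575; chr17:26663231-26699647, plus strand), the e1 subunit, was at 1392, 1464 and 1529 in KO and at 2081, 1709 and 1848 in WT. Every KO library lay below every WT library. Its means were 1462 ± 68.3 in KO and 1879 ± 188 in WT (SD, n = 3 each), and its log2 fold change was -0.36 (SE 0.086), and also -0.36 without KO replicate 2. *Atp6v0e2* (ENSMUSG00000039347; chr6:48537615-48541801, plus strand) encodes e2, a separate protein of 81 residues, the same length as e1, with 69.1% identity to it over the aligned positions. It was at 431, 503 and 529 in KO and at 359.6, 476 and 498 in WT, with overlapping groups and a log2 fold change of 0.14 (SE 0.14). Without KO replicate 2 that fold change was 0.12. The log2 ratio of e2 to e1 ran from -1.69 to -1.53 in KO and from -2.53 to -1.84 in WT, so it was higher in every KO library. Summed, the 2 e genes gave 1823 to 2058 in KO and 2185 to 2440 in WT.

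*Atp6ap1* (ENSMUSG00000019087; chrX:74297097-74304721, plus strand), which encodes Ac45, had the highest normalized counts of the 8 members before any scaling to length. It was listed at 6289, 5382 and 5784 in KO and at 5148, 5509 and 5467 in WT. KO replicate 2 lay below 2 of the 3 WT libraries, so the groups overlapped. The log2 fold change was 0.11 (SE 0.072), and 0.17 without KO replicate 2, where both remaining KO libraries lay above all WT libraries.

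Levels of different genes were also compared after division by the length of the principal transcript, in normalized counts per kilobase. On that scale, *Atp6v0b* was highest in WT at 4461 ± 177 (SD, n = 3), followed by *Atp6v0c* at 2834 ± 188, *Atp6ap1* at 2455 ± 90.3 and *Atp6v0d1* at 1070.0 ± 58.7. *Atp6v0a1* followed at 807 ± 93.9, *Atp6v0e* at 668 ± 66.8, *Atp6v0a2* at 509 ± 48.5 and *Atp6v0e2* at 249 ± 41.6. The proteolipid genes thus stood above the a subunit genes per kilobase. Over the 6 libraries, the ranges of *Atp6v0c* and *Atp6ap1* overlapped, as did those of *Atp6v0d1* and *Atp6v0a1* and those of *Atp6v0e* and *Atp6v0a2*, so the order within these pairs was not separated from the spread. The level of *Atp6v0e* depends on its form: with its coding transcript of 823 nucleotides in place of the principal one of 2812, its WT level was 2283 per kilobase. The files do not show which form was read.

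Genes of V0 outside the 8 members were taken from a list of 5, of which *Atp6v0d2* is not in the table. None of the 4 tested passed adjusted p under 0.05 with limma. *Tcirg1*, which encodes a3, the a subunit of osteoclasts and of secretory lysosomes, was at 477, 627 and 649 normalized counts in KO and at 1020.3, 787 and 845 in WT. All KO libraries lay below all WT libraries, against 14.6% of all genes. The log2 fold change was -0.60 (SE 0.14) with a limma adjusted p of 0.083, and the fold change without KO replicate 2 was -0.66. *Atp6v0a4* (a4, known from the kidney) was at 20.7 to 28.4 in KO and 21.8 to 41.2 in WT, and the log2 fold changes of *Atp6ap2*, the prorenin receptor, and *Rnasek*, a pump-associated protein, were 0.04 and 0.20 with overlapping groups. *Rnasek* shares 599 exon bases with Gm21988 on the same strand, so its counts are uncertain.

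As a share of the 4 a isoforms per kilobase, a1 made up 58.7%, 55.3% and 54.2% in KO and 47.5%, 52.5% and 49.6% in WT. The share of a3 was 8.69%, 11.5% and 13.1% in KO and 21.1%, 14.8% and 18.3% in WT. The a1 shares were higher and the a3 shares lower in every KO library than in any WT library. Shares in a library sum to a fixed total, so a lower a3 share by itself raises the other shares. The normalized counts of *Atp6v0a1* themselves overlapped between the groups. Macrophages also express *Tcirg1*. Of 9 macrophage markers, 3 (*Lyz2*, *C1qa* and *C1qb*) were lower without overlap in KO, against 14.6% of all genes, and the other 6 overlapped. The log2 fold changes were above 0 for 4 of the 9 (*Cd163*, *Mrc1*, *Csf1r* and *Adgre1*, from 0.35 to 0.01) and below 0 for 5. After the principal-transcript correction for length and GC content, the median of the list went from -0.14 to -0.01 (-0.0082). In that fit 0 markers had a limma unadjusted p under 0.05, against 1114 higher and 852 lower of all 14025 genes. With the longest transcript, 2 markers were lower at that p, against 1069 of all 15978 genes. The summed markers ran from 13216 to 15065 in KO and from 15964 to 16365 in WT, and none was listed at 0. In whole hearts, the number of cells of a type and the RNA per cell cannot be told apart, and the part of macrophages in the *Tcirg1* values was not tested.

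**Figure D2:**
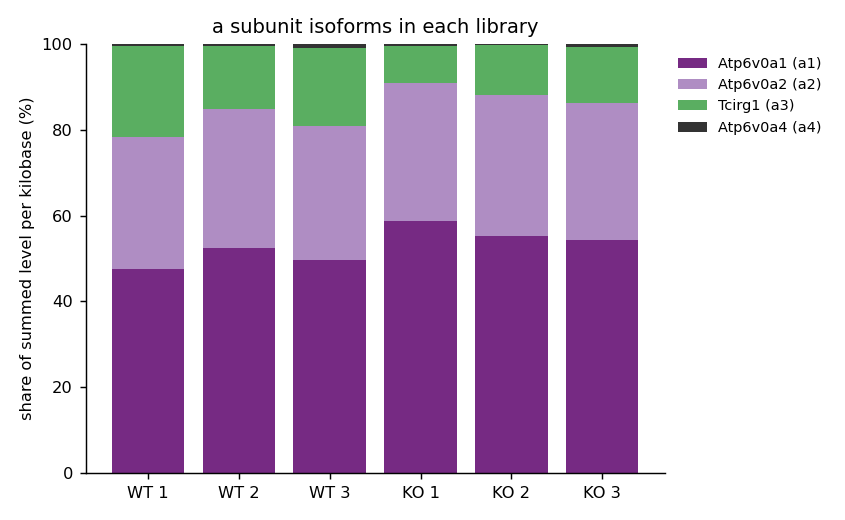
Share of each a subunit isoform (vertical axis, % of the summed normalized counts per kilobase of Atp6v0a1, Atp6v0a2, Tcirg1 and Atp6v0a4) in each of the 3 WT and 3 KO hearts, as stacked bars. Atp6v0a1 takes 47.5% to 52.5% in WT and 54.2% to 58.7% in KO, and Tcirg1 takes 14.8% to 21.1% in WT and 8.69% to 13.1% in KO.

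The V1 sector gave 9 tested genes of 13 listed (*Atp6v1b1*, *Atp6v1c2*, *Atp6v1e2* and *Atp6v1g3* are not in the table). None passed adjusted p under 0.05 with limma, 0 were higher with an unadjusted p under 0.05 (13.0% of all genes) and 2 were lower (10.5% of all genes). The 2 were *Atp6v1f*, a subunit of the central stalk, with a log2 fold change of -0.31 (limma adjusted p 0.0815), and *Atp6v1g1*, a subunit of the peripheral stalks, with -0.16 (adjusted p 0.16). *Atp6v1d*, also of the central stalk, and *Atp6v1e1*, of the peripheral stalks, were lower without overlap as well, at -0.12 and -0.10, which makes 4 of 9 genes, against 14.6% of all genes. The genes for the large ATP-binding head, *Atp6v1a* and *Atp6v1b2*, had values of 0.13 and 0.11 with overlapping groups. The remaining *Atp6v1c1*, *Atp6v1h* and *Atp6v1g2* had 0.05, 0.02 and -0.17. The median of the 9 genes was -0.10. Without KO replicate 2, 1 gene was higher and 1 lower at a limma unadjusted p under 0.05. Over all 16016 genes in that fit, 1908 were higher and 1429 lower at that p.

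Of 11 genes for assembly and regulation of the pump, 9 were in the table (not *Tldc2* and *Meak7*), and none passed adjusted p under 0.05 with limma. *Wdr7* and *Dmxl1*, large proteins of the complex that rejoins V1 with V0, had log2 fold changes of 0.38 (adjusted p 0.12) and 0.35 (adjusted p 0.12), and the endoplasmic reticulum assembly factor *Vma21* had 0.10. In these 3 genes every KO library lay above every WT library, against 15.6% of all genes. After correction for length and GC content, *Wdr7* had 0.18 with the longest transcript and 0.17 with the principal one, and *Dmxl1* had 0.11 with either, with unadjusted limma p from 0.114 to 0.245. *Ccdc115*, another assembly factor, was the 1 gene lower without overlap, at -0.20 (adjusted p 0.15; 14.6% of all genes were lower in this way), and *Tmem199*, its partner, had -0.18 with overlap. *Dmxl2*, *Rogdi*, *Ncoa7* and *Oxr1* had 0.02, -0.10, -0.07 and 0.18, also with overlap. After the correction, *Dmxl2* had -0.22 with the longest transcript and -0.23 with the principal one (limma unadjusted p 0.049 and 0.0413). *Oxr1* had 0.12 and 0.42 (limma unadjusted p 0.106 and 0.00126), and its longest transcript has 4599 nucleotides against 798 for the principal one. No gene passed an adjusted p of 0.05 in either corrected fit.

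**Figure D3:**
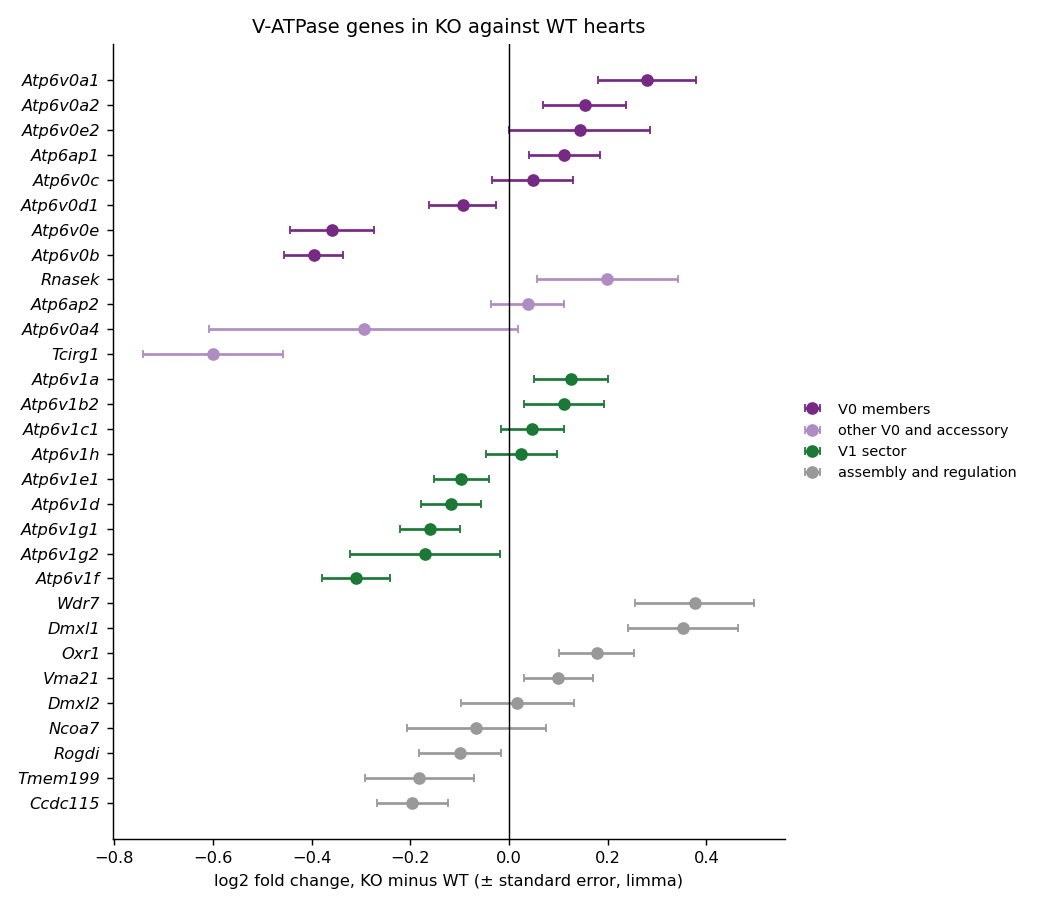
Log2 fold change, KO minus WT, with the standard error from limma (horizontal axis) for the V0 members (dark purple), other V0 and accessory genes (light purple), V1 sector genes (green) and assembly and regulation genes (grey); each point rests on 3 KO and 3 WT hearts. Points lie on both sides of 0 in every group, from -0.60 for Tcirg1 to 0.38 for Wdr7.

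Fold changes in this table varied with transcript length. Across all genes, Spearman's rho of log2 fold change with principal transcript length was 0.53, and in 20 bins of length the median went from -0.26 at 753 nucleotides to 0.27 at 9674 nucleotides. Genes are not independent replicates, so these values carry no p. The members span 1000 (*Atp6v0b*) to 5345 nucleotides (*Atp6v0a2*), with a rho of 0.69 over the 8 genes, and the 9 V1 genes gave a rho of 0.77. The comparison of long a subunits with short proteolipids is therefore also a comparison of lengths. The bin with a median length of 1111.5 nucleotides had a median fold change of -0.20, between *Atp6v0b* (-0.40, 1000 nucleotides) and *Atp6v0c* (0.05, 1183 nucleotides). The bin at 4007.5 nucleotides had 0.07, below *Atp6v0a1* (0.28, 4008 nucleotides). The bin at 2916 nucleotides had -0.00 (-0.0004), above *Atp6v0e* (-0.36, 2812 nucleotides).

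**Figure D4:**
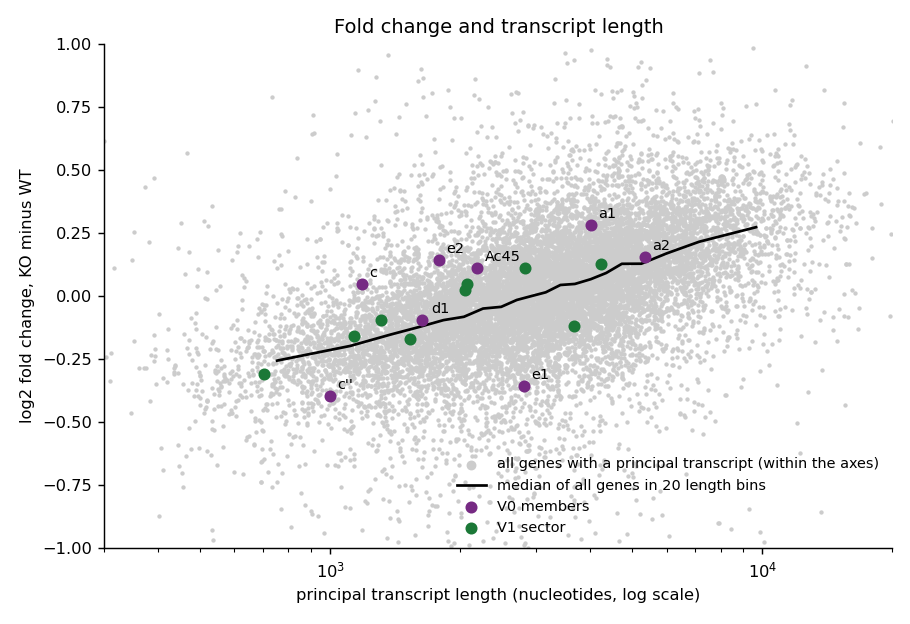
Log2 fold change, KO minus WT (vertical axis, drawn from -1 to 1), against principal transcript length in nucleotides (log scale) for all genes (grey), with the median of 20 length bins (black line), the 8 V0 members (purple, with subunit names) and the 9 V1 genes (green). The black line climbs from -0.26 to 0.27, c'' lies below it and a1 above it, c lies above it and e1 below it.

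A correction that removed each library's dependence on length and GC content moved several members. With the principal transcript, *Atp6v0b* went from -0.40 to -0.17 (SE 0.066) and *Atp6v0a2* from 0.15 to 0.01 (SE 0.079), while *Atp6v0c* went from 0.05 to 0.25 (SE 0.10). *Atp6v0a1* (0.22), *Atp6v0e* (-0.33), *Atp6v0e2* (0.25) and *Atp6ap1* (0.17) stayed within the spread between replicates of their values as deposited, and *Atp6v0d1* went from -0.09 to 0.04. The V1 median became 0.06, and none of the 9 genes kept an unadjusted p under 0.05. *Tcirg1* had -0.57 after the correction, with a limma unadjusted p of 0.00164. In that fit 0 of 14025 genes passed an adjusted p of 0.05, and the lowest adjusted p of any gene was 0.287.

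**Figure D5:**
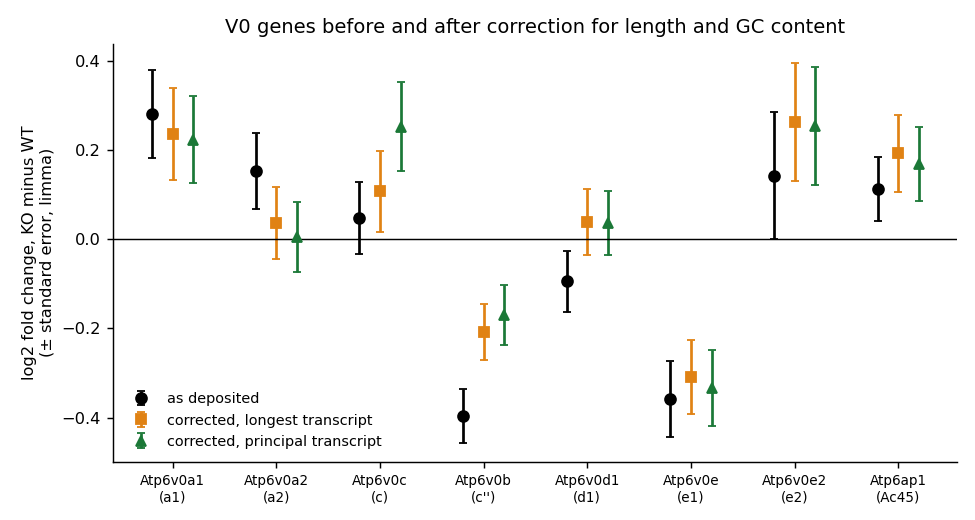
Log2 fold change, KO minus WT, with the standard error from limma (vertical axis) of the 8 V0 members as deposited (black), after correction for length and GC content of the longest transcript (orange) and of the principal transcript (green); each point rests on 3 KO and 3 WT hearts. Atp6v0b moves from -0.40 to -0.21 and -0.17, Atp6v0c moves up to 0.11 and 0.25, and Atp6v0e keeps values of -0.36, -0.31 and -0.33.

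The genes whose log2 values were most like those of *Atp6v0a1* over the 6 libraries, among 11915 genes averaging 100 or more normalized counts, included *Scn4b* (Pearson r 0.996), a sodium channel subunit, and *Polr3b* (0.995), an RNA polymerase subunit. For *Atp6v0c* they included *Bckdha* (0.993) and *Acy1* (0.972), enzymes of amino acid metabolism. Among the members, *Atp6v0b* and *Atp6v0e* had an r of 0.96, and *Atp6v0a1* had -0.84 with *Atp6v0b* and -0.92 with *Atp6v0e*. These are descriptions over 6 libraries that share the genotype difference and the depth of each library.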

How the data were processed

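RNAseq of 6 hearts was analysed from the table the authors deposited. Its values are a signal, namely normalized counts that the authors obtained by dividing reads per gene by a size factor per library. Per the labels, the submitters' processing notes name Trimmomatic 0.36, STAR 2.5.2b, featureCounts of Subread 1.5.2, DESeq2 and GRCm38, and total RNA was read in pairs on an Illumina HiSeq; strand use in counting is not given in the sources used here. Groups and replicate numbers came from the labels, and 0 columns were unmatched.

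The KO against WT test was that of limma 3.58.1 in R 4.3.3, two-sided, with a variance trend. It was run on log2(normalized count + 1), with Benjamini-Hochberg adjustment over 16016 genes averaging 10 or more, at a threshold of 0.05. Fold changes are on that scale. Each library is a separate mouse by its name in the labels. The procedure was tested on simulated data. Symbols, positions and transcript lengths are from GENCODE M21 (GRCm38), and the principal transcript is the APPRIS one (known for 87.6% of genes; the longest transcript for 99.8%). For the length and GC correction, splines (5 degrees of freedom) in log2 length and in GC content were fitted, library by library, to the deviations of genes from their means, and the fit was subtracted.

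The members and lists were chosen with earlier results of these data known. The genes named are the 8 members, *Slc4a4*, every gene of the lists of other V0, V1 and assembly genes, the 2 highest and 2 lowest fold changes of the lysosomal, Ragulator and MiT/TFE lists, and the 3 genes most like *Atp6v0a1* and *Atp6v0c*; marker lists were counted whole. Some genes that meet this rule are not reported here. Other genes are named with the words that they were chosen after their values were seen, or as the background needs.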

Additional observations from a re-analysis of the deposited data

How the results depend on the processing

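The settings tried were the replicate block, the length and GC correction, each library left out, quantile normalization, rescaling to the same total, other filters (none, or a mean of 50), pseudocounts of 0.5 or 5, and limma without its variance trend; the correction by principal transcript was chosen after seeing the data, since the longest transcript of *Atp6v0c* is 2567 nucleotides against 1183 for the principal one. The count tests of edgeR and DESeq2 were not run. The a minus proteolipid difference of 0.39 was 0.186 with the longest transcript, 0.186 with the replicate block as well and 0.0731 with the principal transcript; with one library left out it ran from 0.341 to 0.466. Genes past the threshold numbered 0 under every setting except without KO replicate 2 (from 0 to 3 over the libraries left out). With the replicate block alone, 0 genes passed, the a minus proteolipid difference was 0.391, and the block changed no other call. Deviations of same-numbered libraries correlated at 0.227, 0.072 and -0.029, and not every library correlated best with its own number. With 3 libraries per group, these values cannot settle whether the replicate numbers pair the mice. Genes with an unadjusted p under 0.05 split into 1917 higher and 1936 lower after quantile normalization, and rescaling to the same total moved the median gene to -0.0766. Their number, 3764 as deposited, was 2307 with the longest-transcript correction, 1966 with the principal-transcript one and 2455 without WT replicate 1. Over 17 alternatives, *Atp6v0a1*, *Atp6v0a2*, *Atp6v0b*, *Atp6v0e* and *Atp6ap1* kept their sign, while *Atp6v0c* changed it in 2, *Atp6v0d1* in 3 and *Atp6v0e2* in 1.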

Other observations

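The lysosome that the pump acidifies was followed with 23 genes for lysosomal hydrolases and membrane proteins, and none passed adjusted p under 0.05 with limma. With an unadjusted p under 0.05, 4 were higher (13.0% of all genes) and 3 were lower (10.5% of all genes). Without overlap between the groups, 6 were higher (15.6% of all genes) and 3 lower (14.6% of all genes). The highest value was that of *Npc1*, which exports cholesterol from the lysosome (log2 fold change 0.56, adjusted p 0.0815). The lowest were those of the tetraspanin *Cd63* (-0.32, adjusted p 0.11) and of *Npc2*, which passes cholesterol to *Npc1* (-0.20, adjusted p 0.17). The median of the list was 0.08, and 0.09 after the principal-transcript correction.

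Of the 10 Ragulator and Rag GTPase genes, which tie the pump to nutrient signalling on the lysosome, none passed limma's adjusted p of 0.05. Here 2 were lower with an unadjusted p under 0.05, *Lamtor2* (-0.23, adjusted p 0.14) and *Lamtor1* (-0.20, adjusted p 0.13), against 10.5% of all genes, and 0 had such a p after either correction for length and GC content. Without overlap between the groups, 1 was higher (15.6% of all genes) and 4 were lower (14.6% of all genes). The median of the list was -0.09, and 0.04 after the principal-transcript correction. *Rragb* and *Slc38a9* had the highest values, 0.20 and 0.18. The 4 MiT/TFE factors, which drive lysosomal genes, gave 0 past limma's adjusted p of 0.05. *Mitf* had 0.25 with all KO libraries above all WT libraries, against 15.6% of all genes. The others overlapped, with *Tfeb* at 0.02, *Tfe3* at -0.01 and the scarce *Tfec* at -0.51. Neither *Mitf* nor any other factor had an unadjusted p under 0.05 after correction.

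Among the remaining marker lists, none held a gene past limma's adjusted p of 0.05. At an unadjusted p under 0.05, 2 of 7 cardiomyocyte, 2 of 6 endothelial and 2 of 6 fibroblast markers were higher, 2 of 6 fibroblast markers were lower, and 0 of 5 erythroid, 0 of 6 lymphoid and 0 of 4 adipocyte markers had such a p, against 13.0% of all genes higher and 10.5% lower. The summed adipocyte markers ran from 82.4 to 5029 in KO and from 1245 to 3596 in WT, a spread within KO far wider than that of any V0 member.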
